A study of Mus musculus with 6 samples.

Results

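The genes described here were 7 myosin light chains (Myl2, Myl3, Myl4, Myl7, Myl1, Myl6, Myl9) and the light chain kinase Mylk3, taken by symbol from the 27998 genes listed in the count tables, and each of the 8 symbols matched a single gene. They were measured in 30733 cardiomyocytes (CMs) of the mouse left ventricle by droplet-based scRNA-seq, which counts unique molecular identifiers (UMIs), 1 per captured 3′ end. There were 6 libraries of sorted CMs from C57BL/6J mice, with no treatment or altered allele in any: E16.5-2n (diploid, embryonic day 16.5), E16.5-4n (tetraploid, titled E16.5 although its age field reads 16.6), P1-2n and P1-4n (postnatal day 1), and P5-2n and P5-4n (postnatal day 5). The sort took fixed cells by a myosin heavy chain stain and by DNA content, so a 4n cell could be dividing, binucleated or polyploid. Attached cells could also read as 4n. The paper reports that clumps were scarce after sorting, and doublets were not marked here. Each library held cells of several sorts pooled together, so each group was 1 library with no replicate, and no test was run. Intervals below are 95% intervals that cover counting error only.

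Each myosin head carries an essential and a regulatory light chain, which stiffen its lever arm. The regulatory chain is phosphorylated by a calcium and calmodulin dependent kinase, which in cardiac muscle is the product of Mylk3. Adult ventricles use the essential chain of Myl3 and the regulatory chain of Myl2, whereas atria use those of Myl4 and Myl7, which embryonic ventricles also express. Myl1 encodes the essential chain of fast skeletal muscle, Myl6 the essential chain of smooth muscle and non-muscle myosin, and Myl9 a regulatory chain of smooth muscle and non-muscle myosin.

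All 8 genes had positions in GRCm38 with no other annotated gene overlapping on the same strand. Myl2 lay on chromosome 5 (122100951 to 122113472, plus strand), Myl3 on chromosome 9 (110741861 to 110769798, plus), Myl4 on chromosome 11 (104550663 to 104595753, plus) and Myl7 on the same chromosome (5896637 to 5898782, minus). Myl1 lay on chromosome 1 (66924295 to 66945404, minus), Myl6 on chromosome 10 (128490860 to 128494145, minus), Myl9 on chromosome 2 (156775420 to 156781658, plus) and Mylk3 on chromosome 8 (85324303 to 85386345, minus).

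Sequences of 2 genes are shown because they belong to a chain that kept its level through birth (Myl3) and to one that lost most of it (Myl7). Each is the 250 bases before the start site in the RefSeq promoter table (GRCm38.p6), written 5′ to 3′ on the gene's strand, at chr9:110763428-110763677 (plus) for Myl3 and chr11:5898783-5899032 (minus) for Myl7. Capitals mark matches, on either strand, to the CArG box (the serum response factor motif), to GATAA (GATA factors) and to CATTCC (the M-CAT motif of TEAD factors).
Myl3: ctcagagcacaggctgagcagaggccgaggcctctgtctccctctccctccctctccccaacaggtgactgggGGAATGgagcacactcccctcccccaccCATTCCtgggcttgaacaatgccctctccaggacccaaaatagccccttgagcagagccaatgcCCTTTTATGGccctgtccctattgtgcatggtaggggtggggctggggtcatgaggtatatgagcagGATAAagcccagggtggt
Myl7: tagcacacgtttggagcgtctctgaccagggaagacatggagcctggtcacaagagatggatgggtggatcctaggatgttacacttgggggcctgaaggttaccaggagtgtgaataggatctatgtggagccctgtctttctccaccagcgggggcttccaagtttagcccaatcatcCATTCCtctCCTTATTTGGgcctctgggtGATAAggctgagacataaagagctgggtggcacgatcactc
Both windows held all 3 motifs, and none of the matches overlapped one of another motif. In Myl7 the CArG box ended 52 bases before the start, with CATTCC from base 70 to base 65 and GATAA from base 41 to base 37. In Myl3 the CArG box ended 76 bases before the start, GATAA ran from base 18 to base 14, and CATTCC occurred on each strand. Of 32851 windows of the same length, 1.47% held a CArG box, 22.6% held GATAA, 12.6% held CATTCC and 15 held all 3. None of the other members' windows held all 3, and that of Myl4, the other fetal chain, held no match to any of them. The windows that the table gives for Myl2 lay 7762 and 8227 bases from the nearest annotated start of a basic Myl2 transcript and are not shown. A match is a description of letters and not of a bound site.

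The libraries held 3654 to 7340 CMs each, defined by at least 1 UMI of Tnni3, Tnnt2, Tnnc1 and Actc1, which left out 423 of 31156 cells. Summed UMIs were 13070343 to 19665830 per library and median UMIs per CM were 1831 to 4658, with the P1-2n library shallowest and the P5-4n library deepest. A total of 499 barcodes occurred in more than 1 library. Libraries of 4n cells carried more UMIs of 8 fibroblast markers than 2n libraries, 360 to 947 against 133 to 263 CPM in sum, and all 8 were detected in every library. Haemoglobin and other erythroid genes were present in most CMs (at least 2 UMIs in 50.6% to 89.7%). Of 8 skeletal muscle genes, 5 to 7 were detected per library, while the regulator Myod1 was at 0 in all 6 libraries.

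The ventricular pair dominated in every library and spanned less than a fold of 1.5 over the 6 libraries. Myl2, the ventricular regulatory chain, stood at 10493 CPM (UMIs of the gene per 1000000 UMIs of the CMs) for E16.5-2n, 8795 for E16.5-4n, 12524 for P1-2n, 12298 for P1-4n, 12998 for P5-2n and 11859 for P5-4n. Myl3, the ventricular essential chain, stood at 9791, 8142, 10730.2, 9468, 11786 and 10347 CPM in the same order. Both were the most abundant members in all 6 libraries, with intervals that did not overlap between them or with the next gene. At least 1 UMI of Myl2 was found in 99.9% to 100% of CMs, and of Myl3 in 99.8% to 100%.

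From E16.5 to P5 the log2 ratio of Myl2 was 0.31 in 2n (interval 0.30 to 0.32) and 0.43 in 4n (0.42 to 0.44), and that of Myl3 was 0.27 (0.26 to 0.28) and 0.35 (0.33 to 0.36). Over the same step the median gene had a log2 ratio of -0.45 in 2n and -0.51 in 4n. Relative to that median, Myl2 was 0.76 and 0.94 higher and Myl3 0.72 and 0.85 higher. Neither gene passed a fold of 2 in any comparison on the CPM scale.

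**Figure D1:**
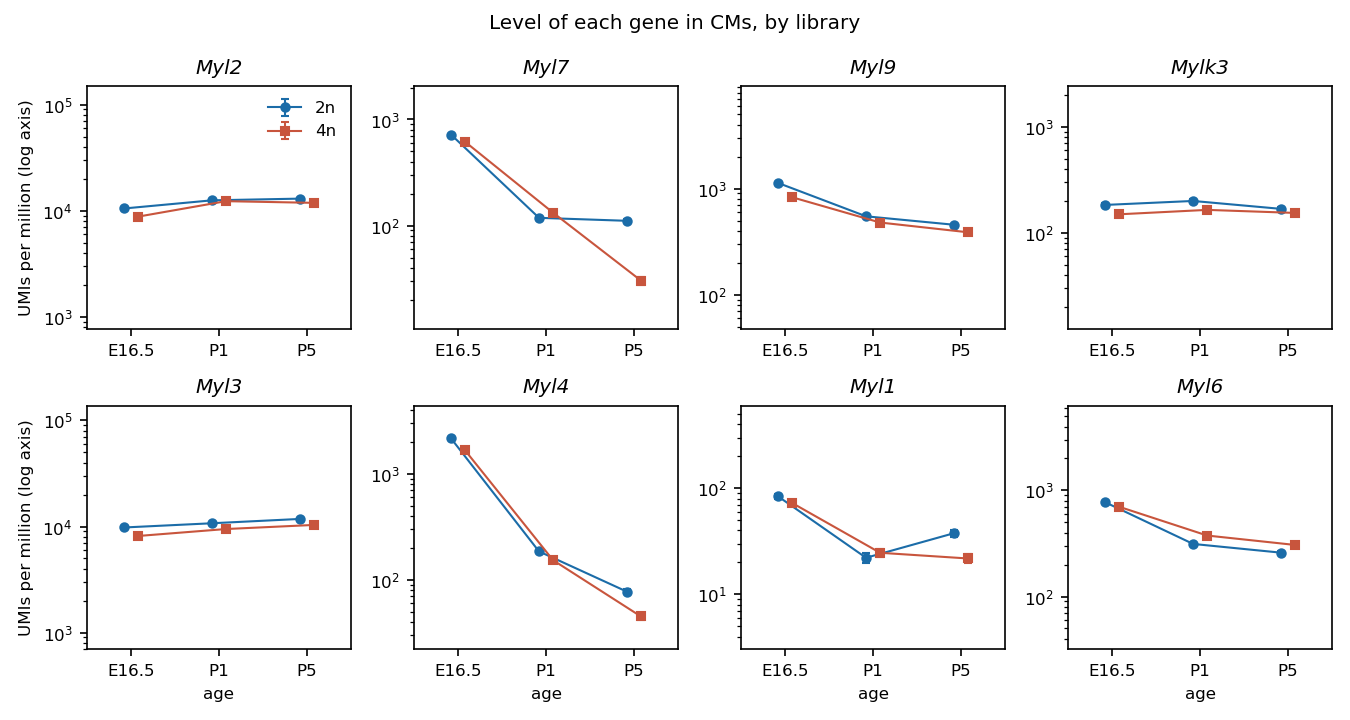
Level of each of the 8 genes in the CMs of each library, in CPM on a log axis of the same span in every panel, against age (circles 2n, squares 4n, bars 95% Poisson intervals, 1 library per point). Myl2 and Myl3 stay between 8142 and 12998 CPM, Myl4 and Myl7 drop by P1, and Mylk3 lies between 149.7 and 199.9 CPM throughout.

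Myl4, the essential chain of atria and of the embryonic ventricle, gave the largest difference among the members. It stood at 2149.6 CPM for E16.5-2n (interval 2126 to 2174), 1656 for E16.5-4n (1634 to 1678), 185 for P1-2n (179 to 192), 153 for P1-4n (148 to 159), 77.4 for P5-2n (73.4 to 81.6) and 45.2 for P5-4n (42.1 to 48.3). Every later library lay below every earlier library of the same or the other ploidy. The fold between E16.5 and P1 was 11.6 in 2n and 10.8 in 4n, and between P1 and P5 it was 2.39 and 3.39. Only 0.0532% of the 9391 genes with at least 100 UMIs had a lower log2 ratio than Myl4 from E16.5-2n to P1-2n, and 0.1% of 9958 had one from E16.5-4n to P1-4n.

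Myl7, the regulatory chain of atria and of the embryonic ventricle, stood at 719.5 CPM for E16.5-2n (706 to 733), 616 for E16.5-4n (602 to 629), 118 for P1-2n (113 to 124), 132 for P1-4n (127 to 138), 111 for P5-2n (106 to 116) and 30.3 for P5-4n (27.9 to 32.9). The 2 ploidies were close at E16.5 and P1 and apart at P5. From E16.5 to P1 the fold was 6.08 in 2n and 4.65 in 4n. From P1 to P5 it was 4.36 in 4n, whereas in 2n the log2 ratio was -0.09 (-0.18 to -0.0026). The direction in 2n depended on the setting, at 0.43 after thinning every CM to 1000 UMIs, 0.34 as a mean over cells, 0.01 with median-of-ratios scaling and -1.47 without CMs that held at least 2 UMIs of an atrial marker list.

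Expressed as isoform shares, Myl4 made up 18.0% of the Myl3 and Myl4 UMIs in E16.5-2n (17.8% to 18.2%) and 16.9% in E16.5-4n (16.7% to 17.1%). At P1 it made up 1.70% in 2n (1.64% to 1.76%) and 1.59% in 4n (1.54% to 1.65%), and at P5 0.652% (0.618% to 0.687%) and 0.435% (0.406% to 0.465%). Myl7 made up 6.42% of the Myl2 and Myl7 UMIs for E16.5-2n (6.30% to 6.54%), 6.54% for E16.5-4n (6.40% to 6.68%), 0.936% for P1-2n (0.896% to 0.979%), 1.06% for P1-4n (1.02% to 1.11%), 0.846% for P5-2n (0.810% to 0.884%) and 0.255% for P5-4n (0.234% to 0.277%). Between E16.5 and P5 the Myl4 share fell by 17.4 percentage points in 2n and by 16.5 in 4n, and the Myl7 share fell by 5.57 and 6.29 points. Nearly all of that difference lay between E16.5 and P1, where the Myl4 share fell by 16.3 and 15.3 points and the Myl7 share by 5.48 points in both ploidies.

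**Figure D2:**
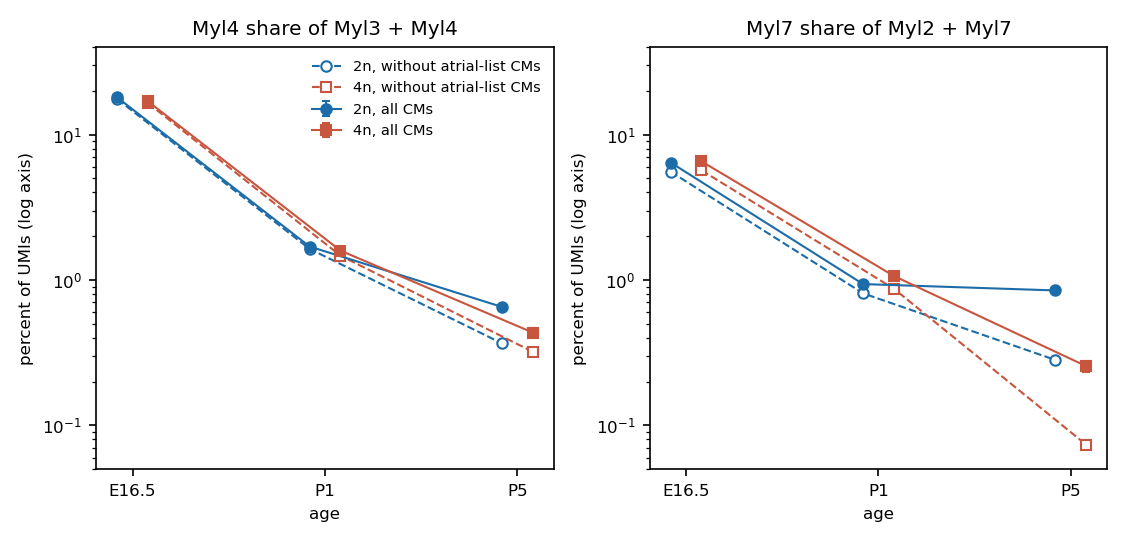
Share of Myl4 among Myl3 and Myl4 UMIs (left) and of Myl7 among Myl2 and Myl7 UMIs (right), in percent on a log axis, by age; filled points are all CMs with 95% exact intervals, and open points leave out CMs with at least 2 UMIs of an atrial marker list. The Myl7 share of P5-2n is 0.846% in all CMs and 0.281% without those cells.

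Among the 4 essential chains described here, Myl3 made up 76.5% and 77.0% of UMIs at E16.5 (2n and 4n), then 95.4% and 94.5% at P1, and 96.9% and 96.5% at P5. Among the 3 regulatory chains described here, Myl2 made up 85.0% and 85.9%, then 94.9% and 95.3%, then 95.8% and 96.6%. The 4 essential chains together gave 50.9% and 50.8% of the UMIs of these essential and regulatory chains at E16.5. They gave 46.0% and 43.7% at P1, and 47.3% and 46.6% at P5. Other light chains, such as the regulatory chain Myl12a, were not counted in these shares. Counts of UMIs compare captured 3′ ends and not protein.

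UMIs of the fetal chains were spread over most E16.5 CMs and over few later CMs. The share of CMs with at least 1 Myl4 UMI was 79.8% for E16.5-2n, 76.4% for E16.5-4n, 17.9% for P1-2n, 25.1% for P1-4n, 8.29% for P5-2n and 11.5% for P5-4n. The share with at least 1 Myl7 UMI was 56.1%, 53.9%, 15.1%, 24.6%, 4.94% and 3.45% in that order. With every CM thinned to 1000 UMIs, which removes the depth difference and leaves out 0 to 700 CMs per library, Myl4 was found in 67.0%, 61.4%, 10.6%, 10.4%, 3.32% and 3.42%, and Myl7 in 36.0%, 33.2%, 8.10%, 8.19%, 1.82% and 1.01%. At equal depth the difference between P1-2n and P1-4n was gone.

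Free RNA in the droplets can place UMIs in cells that do not express a gene, and the sort left no clean cell type that should lack these chains. In the 24 to 129 cells per library that failed the CM definition, with median depths of 911 to 1439.5 UMIs, Myl4 was found in 37.3% and 48.1% of cells at E16.5, in 9.30% and 10.0% at P1 and in 2.04% and 4.17% at P5 (2n and 4n). Myl7 was found in 21.7% and 25%, 9.30% and 10.0%, and 8.16% and 0% of them. The thinned shares of CMs lay above the intervals of these values at E16.5, other than Myl7 in E16.5-4n (33.2% against an upper limit of 34.3%). At P1 they lay within those intervals for both genes, and at P5 within or below them. The cells compared were few and were not a type that lacks light chains, since Myl2 was found in 90.4% to 100% of them and Myl3 in 92.6% to 96.7%.

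Per cell, the median Myl4 share of Myl3 and Myl4 UMIs for E16.5-2n was 12.0% and for E16.5-4n 11.8%, resting on a median of 26 and 21 UMIs per CM, and the 95th percentile was 42.9% and 42.7%. The median was 0% in the 4 later libraries. Myl4 outnumbered or equalled Myl3 in 2.46% of CMs for E16.5-2n (140 cells), 2.79% for E16.5-4n (136), 0.177% for P1-2n (13), 0.147% for P1-4n (7), 0.476% for P5-2n (21) and 0.137% for P5-4n (5). The median Myl7 share was 2.94% and 2.70% at E16.5, and its 95th percentile was 22.2% and 22.0%.

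At E16.5 the members sorted into those that followed the Myl4 share of a cell and those that did not. In E16.5-2n, CMs with a Myl4 share under 10% (2503 cells) had 385 CPM of Myl7, those from 10% to 25% (1795 cells) had 639, those from 25% to 50% (1259 cells) had 1013 and those of 50% or more (140 cells) had 5447. Myl1 stood at 39.1, 79.6, 145 and 322 CPM in the same 4 ranges, and Myl9 at 861, 1170.3, 1448 and 2075. Mylk3 stood at 182, 182, 186 and 205 CPM, Myl6 at 752, 776, 791 and 949, and Myl2 at 10683, 10439, 10419 and 8507. The pattern was alike in E16.5-4n, where Myl7 stood at 364, 517, 998 and 3436 CPM, Myl1 at 36.0, 57.1, 126 and 521, Myl9 at 631, 858, 1103 and 1499.8, and Mylk3 at 147, 153, 148 and 164.

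Median depth was 2057, 2416, 2486 and 1860 UMIs per CM in the 4 ranges of E16.5-2n, and the ranges are cuts of a continuous value. Without CMs that held at least 2 UMIs of the atrial list, Myl7 in E16.5-2n was 383, 617, 908 and 2587 CPM and Myl1 37.4, 77.3, 136 and 270 CPM. The pattern is described here without a test, since the ranges were cut from these cells.

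**Figure D3:**
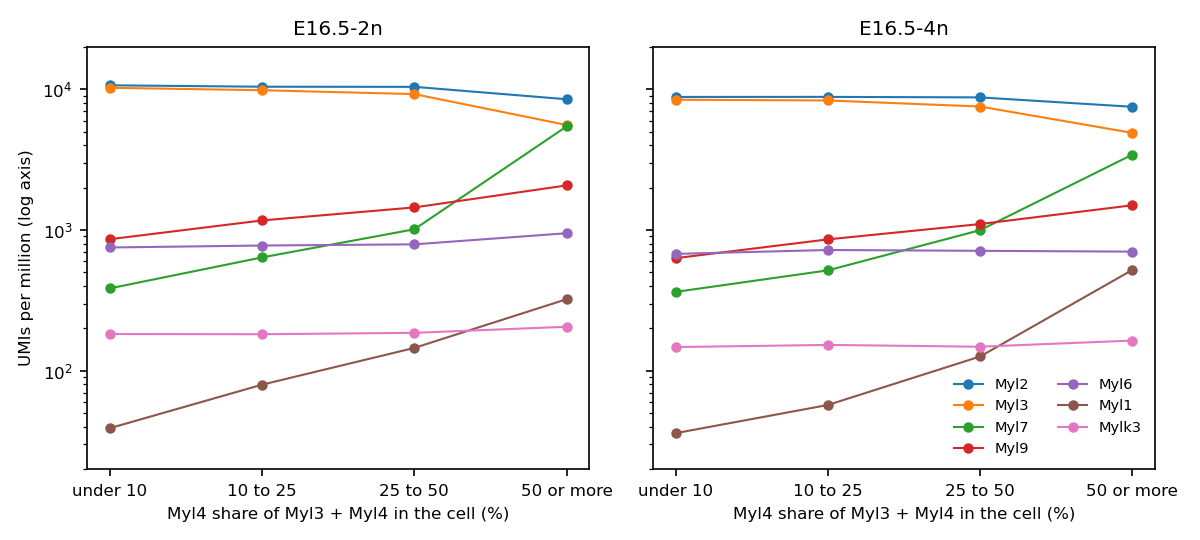
Level of 7 members in CPM (log axis) in E16.5-2n (left) and E16.5-4n (right) CMs, grouped by the Myl4 share of the Myl3 and Myl4 UMIs of the cell. Myl7, Myl9 and Myl1 rise from left to right (Myl7 from 385 to 5447 CPM in E16.5-2n) while Mylk3 stays between 147 and 205 CPM.

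At P5 the Myl7 UMIs sat in very few cells. The top 1% of CMs by Myl7 (44 and 36 cells) held 91.0% of the Myl7 UMIs in P5-2n and 83.9% in P5-4n, against 36.4% and 35.5% at P1 and 17.3% and 18.6% at E16.5 (2n and 4n). For Mylk3 the top 1% held 5.64% to 8.33% in the 6 libraries. For Myl4 the top 1% held 71.2% and 46.7% at P5, 31.6% and 27.4% at P1, and 6.72% and 8.01% at E16.5. The highest count of Myl7 in a single CM was 180 UMIs, in P5-2n.

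CMs in which Myl7 made up at least 25% of the Myl2 and Myl7 UMIs numbered 240 for E16.5-2n (4.21% of CMs), 199 for E16.5-4n (4.08%), 21 for P1-2n (0.286%), 16 for P1-4n (0.337%), 29 for P5-2n (0.657%) and 7 for P5-4n (0.192%). Just below that value, from 15% to 25%, lay 317, 295, 26, 15, 5 and 1 CMs, and just above it, from 25% to 35%, lay 118, 103, 6, 5, 1 and 2. At E16.5 the value thus cuts through a continuous range, whereas in P5-2n few cells lay near it. These cells held 31.9%, 31.0%, 24.1%, 26.0%, 88.6% and 74.4% of all Myl7 UMIs in the 6 libraries.

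The 29 cells of P5-2n had 20842 CPM of Myl7 and 4729 of Myl2 (against 12.7 and 13037) by this choice, and other genes differed there too. Myl4 stood at 9942 CPM (9282 to 10637) against 30.6 in the remaining 4384 CMs, and Myl1 at 1159 (941 to 1412) against 32.4. Myl3 stood at 5296 CPM against 11817. Sln, the sarcolipin of atrial muscle, stood at 2577 CPM against 0.504, and Mybphl, an atrial myosin-binding protein, at 213 against 0.224. The remaining markers of the 7-gene atrial list were lower, from 106 CPM for Dkk3 (9 UMIs) and 94.6 for Stard10 (8 UMIs) to 0 UMIs of Bmp10.

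In the same cells Tnni3, Tnnt2, Tnnc1 and Actc1 stood at 5060 to 9966 CPM, Myh6 (the adult mouse heavy chain) at 2423 against 2511, Myh7 (the fetal heavy chain) at 70.9 against 184, and Mylk3 at 201 (117 to 322) against 168. Their median depth was 2459 UMIs against 3764. The 7 cells of P5-4n had 4841 CPM of Myl4, 129 of Myl1 and 2001 of Sln, against 33.0, 21.5 and 0.490 in the other CMs. They held 1.5% of the 401 Myl1 UMIs of that library, so the 129 rested on few UMIs. Levels of the other atrial-list genes in the 7 cells are not given. Whether the Myl7-rich cells of either library came from atrial tissue beside the dissected ventricle was not tested.

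**Figure D4:**
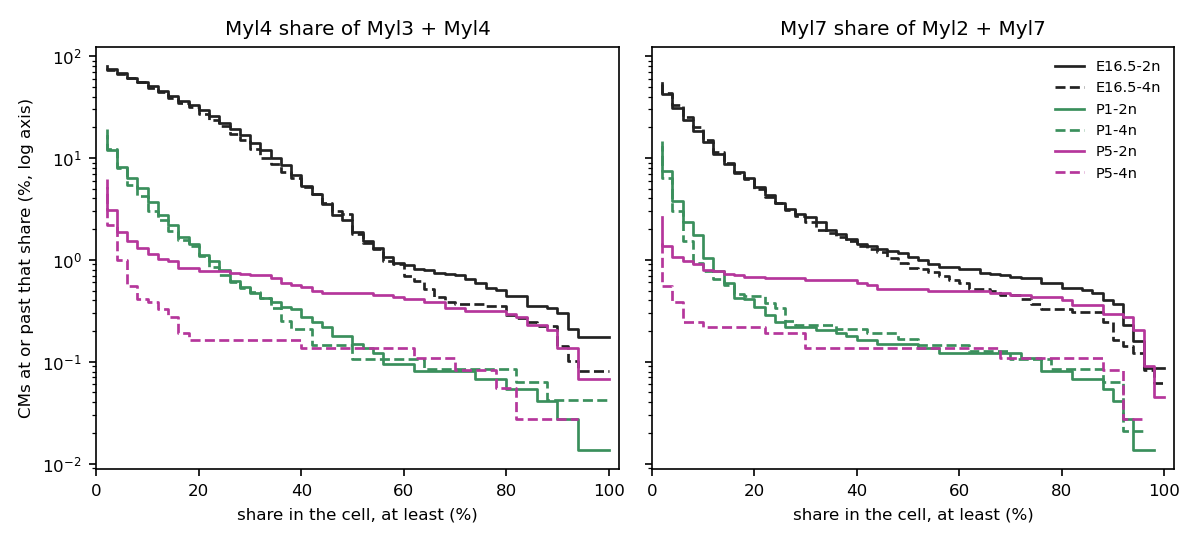
Percentage of CMs (log axis) whose Myl4 share of Myl3 and Myl4 UMIs (left) or Myl7 share of Myl2 and Myl7 UMIs (right) is at or past the value on the horizontal axis, for each library (solid 2n, dashed 4n). The P5-2n curve for Myl7 is nearly flat beyond 20%, with 29 CMs past 25% and 23 past 50%, while the E16.5 curves decline steadily.

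The atrial list does not contain a light chain, so it allowed the shares to be read without choosing cells by Myl7. CMs with at least 2 of its UMIs numbered 109 and 112 at E16.5, then 38 and 138 at P1, and 58 and 34 at P5 (2n and 4n). The Myl7 share in them was 35.5% and 29.4%, 18.0% and 5.06%, and 30.5% and 16.1%. In CMs with none of its UMIs it was 5.37% and 5.43%, 0.777% and 0.810%, and 0.225% and 0.0700%. The Myl4 share in the CMs without such UMIs was 17.2% and 16.1% at E16.5, then 1.60% and 1.43% at P1, and 0.332% and 0.314% at P5. All 7 genes of the list were detected in every library, and their summed level was 56.3 and 59.6 CPM at E16.5, then 23.3 and 45.2 at P1, and 29.7 and 19.7 at P5. Its makeup differed, with 24.5 CPM of Sln in E16.5-2n and 12.7 in P5-2n, but 4.27 in P1-4n, where Stard10, Nr2f2 (10.6) and Dkk3 (8.54) were higher. Median depth in the CMs with at least 2 list UMIs and in those with none was 2460 and 2212 UMIs for E16.5-2n, 3275.5 and 2132 for E16.5-4n, 2229.5 and 1822 for P1-2n, 5462.5 and 3064 for P1-4n, 3400.5 and 3763.5 for P5-2n, and 4449 and 4654 for P5-4n.

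Leaving out the CMs with at least 2 atrial-list UMIs, an alternative chosen after seeing the data, gave a log2 ratio of Myl7 from P1-2n to P5-2n of -1.47 in place of -0.09, and a Myl7 share of 0.281% in P5-2n and 0.0735% in P5-4n. Across single CMs the Myl4 and Myl7 shares had a Pearson r of 0.44, 0.37, 0.47, 0.60, 0.93 and 0.90 in the 6 libraries (3654 to 7340 CMs, which share a library and a depth), given as a description. At P5 the Myl4 share was 0 in 91.7% (2n) and 88.5% (4n) of CMs, and the Myl7 share in 95.1% and 96.6%. The high r at P5 therefore rests on few cells and does not describe most CMs.

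Myl1, the fast skeletal essential chain, was the least abundant member in all 6 libraries. It stood at 83.8 CPM for E16.5-2n (79.1 to 88.6), 72.6 for E16.5-4n (68.1 to 77.4), 22.1 for P1-2n (19.9 to 24.5), 24.7 for P1-4n (22.5 to 27.0), 37.7 for P5-2n (34.9 to 40.7) and 21.8 for P5-4n (19.7 to 24.0). The lowest values were those of P1-2n and P5-4n, and the P5-2n library lay above both P1 libraries. From P1-2n to P5-2n its log2 ratio was 0.77 (0.58 to 0.96), higher than that of 95.2% of genes, and 0.52 without atrial-list CMs. From P1-4n to P5-4n it was -0.18 (-0.37 to 0.02), and 0.25 after thinning, so its direction was not settled. The 29 CMs of P5-2n described above held 14.5% of its UMIs there.

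Other skeletal muscle genes summed to less than Myl1 in each library. The summed level of the 8-gene skeletal list was 26.1 and 25.2 CPM at E16.5, then 11.7 and 9.56 at P1, and 7.48 and 6.03 at P5, with 5 to 7 of 8 genes detected. At least 2 of its UMIs were found in 0.0545% to 0.697% of CMs. Myl1 in those CMs was 266 CPM against 81.7 in CMs with none for E16.5-2n (34 cells) and 70.5 against 71.4 for E16.5-4n (34). At P1 it was 0 against 22.3 in 2n (4 cells) and 26.3 against 24.3 in 4n (13). At P5 it was 188 (86.2 to 358) against 37.7 in 2n (11 cells) and 32.7 against 21.1 in 4n (6). The 188 rested on 9 UMIs and the 32.7 on 1 UMI. Of those 9, 7 lay in the 2 cells with at least 3 list UMIs, which also held 73 Myl7 UMIs.

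Myl9 and Myl6, the smooth muscle and non-muscle chains, were lower after birth. Myl9 stood at 1131 CPM for E16.5-2n, 829 for E16.5-4n, 549 for P1-2n, 479 for P1-4n, 457 for P5-2n and 388 for P5-4n, and was lower in 4n than in 2n at each age. Myl6 stood at 773 CPM for E16.5-2n, 701 for E16.5-4n, 313 for P1-2n, 376 for P1-4n, 259 for P5-2n and 306 for P5-4n. From E16.5 to P5 the fold of Myl9 was 2.48 in 2n and 2.14 in 4n, and that of Myl6 was 2.99 and 2.29. Both remained lower under median-of-ratios scaling, by 0.86 and 0.57 (Myl9) and by 1.13 and 0.67 (Myl6) on the log2 scale, so that only the 2n difference of Myl6 still passed a fold of 2.

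Neither chain was limited to a few cells. Myl9 was found in 77.7% and 72.0% of CMs at E16.5, then 48.8% and 62.1% at P1, and 69.1% and 69.4% at P5, and its top 1% of CMs held 6.28% to 9.23% of its UMIs. CMs with at least 2 UMIs of a 7-gene mural list, pericyte and vessel wall markers, were few (25 to 337 per library). Myl9 in them was 907 CPM against 1127 in CMs with none for E16.5-2n, 698 against 833 for E16.5-4n, 460 against 549 for P1-2n, 532 against 467 for P1-4n, 483 against 457 for P5-2n and 427 against 383 for P5-4n. Myl6 in them was 686 against 775 CPM for E16.5-2n, 830 against 696 for E16.5-4n, 429 against 310 for P1-2n, 495 against 354 for P1-4n, 561 against 247 for P5-2n and 524 against 294 for P5-4n. Myl6 was thus higher beside mural UMIs in 5 of the 6 libraries and Myl9 in 3, with larger median depth in the mural-list cells of every library. The Myl9 intervals overlapped in P1-2n (376 to 557 against 538 to 561), in P5-2n (429 to 543 against 447 to 468) and in P5-4n (384 to 474 against 373 to 392). Those of Myl6 overlapped in E16.5-2n (577 to 810 against 760 to 790), where the mural-list CMs numbered 25. CMs with none of these UMIs had 383 to 1127 CPM of Myl9 and 247 to 775 of Myl6.

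Beside fibroblast-list UMIs Myl6 was higher in all 6 libraries, least so in E16.5-2n (119 CMs), where its direction was not settled. In CMs with at least 2 of them it was 808 CPM against 773 in those with none for E16.5-2n, 762 against 677 for E16.5-4n, 409.6 against 309.7 for P1-2n, 429 against 346 for P1-4n, 422 against 239 for P5-2n and 423 against 284 for P5-4n. Myl9 was 810 against 1141 CPM in E16.5-2n and 370.4 against 556 in P1-2n, and between 381 and 745 against 385 and 856 in the other 4.

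The 5-gene smooth muscle list (Myh11, Cnn1, Tagln, Acta2, Smtn) gave at least 2 UMIs in 31.8% to 67.4% of CMs. Most of its level was Acta2, the smooth muscle actin, with 1770.5 of 1891 CPM in E16.5-2n and 597.7 at the lowest, in P1-4n, while Myh11, the smooth muscle heavy chain, stood at 0.459 to 3.56 CPM. Which cells these UMIs came from was not tested. Myl9 in those CMs was 1201 CPM against 968 in CMs with none for E16.5-2n, 868 against 657 for E16.5-4n, 728 against 362 for P1-2n, 562 against 310.1 for P1-4n, 496 against 407 for P5-2n and 431 against 281 for P5-4n. It was higher beside smooth muscle UMIs in all 6 libraries, and so was Myl6, at 265 to 801 against 248 to 685 CPM. CMs with such UMIs had larger median depth.

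Mylk3, the cardiac light chain kinase, stood at 183 CPM for E16.5-2n (177 to 191), 149.7 for E16.5-4n (143 to 157), 199.9 for P1-2n (193 to 207), 164.8 for P1-4n (159 to 171), 168 for P5-2n (162 to 175) and 154 for P5-4n (149 to 160.0). The 6 values spanned less than a fold of 1.5, and the 4n value was lower at each age. From E16.5 to P5 its log2 ratio was -0.12 in 2n and 0.04 in 4n, and with median-of-ratios scaling 0.33 and 0.57, so the direction in 2n depended on the scaling. The 4n value had an interval that held 0 (-0.04 to 0.13), and it was -0.02 after thinning and -0.25 without cells that held markers of other types. Mylk3 was found in 30.6% to 49.8% of CMs, and in 13.6% to 18.3% after thinning.

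**Figure D5:**
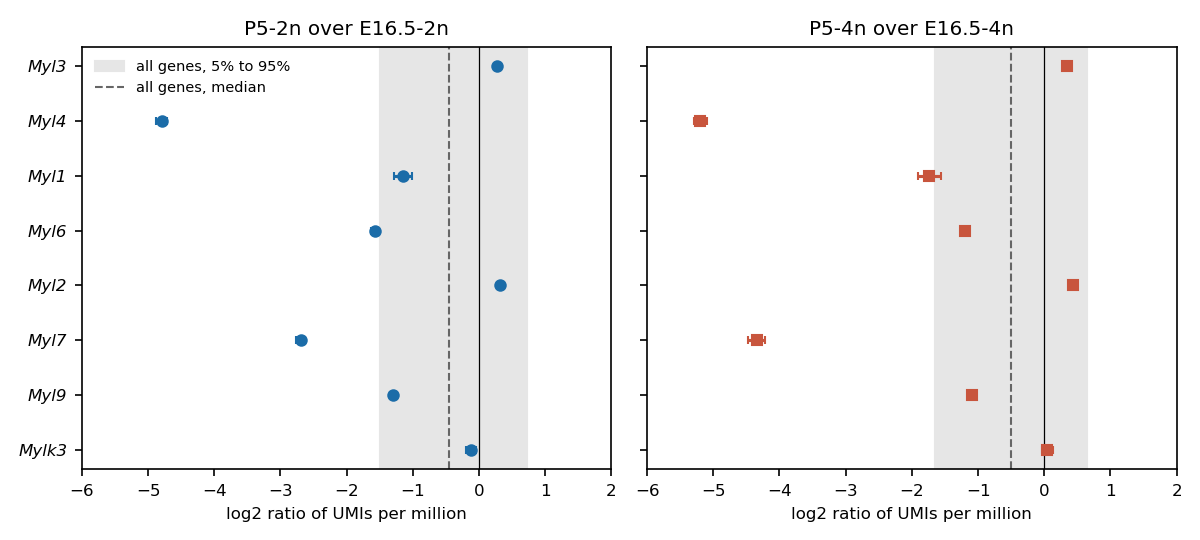
Log2 ratio of P5 over E16.5 for each member in 2n (left) and 4n (right), with 95% counting intervals; the grey band spans the 5% to 95% range and the dashed line the median of all genes with at least 100 UMIs in the 2 libraries. Myl4 (-4.80 and -5.20) and Myl7 (-2.70 and -4.34) lie outside the band in both, and Myl2 and Myl3 lie to the right of the median. Myl6 in 2n and Myl1 in 4n also lie below the band, each in that ploidy only.

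Counted against a fold of 2, 5 of 8 members were lower in P1-2n than in E16.5-2n (Myl4, Myl1, Myl6, Myl7, Myl9) against 12.1% of all genes tested, and 0 were higher against 1.98%. In 4n, 3 of 8 were lower at P1 than at E16.5 (Myl4, Myl1, Myl7) against 11.6%, and 0 were higher against 2.88%. From P1 to P5, 1 member was lower in 2n (Myl4) against 1.98% and 2 in 4n (Myl4, Myl7) against 5.85%, and 0 were higher in either, against 3.02% and 2.4%. With median-of-ratios scaling the count from E16.5-2n to P1-2n was 3 of 8, since Myl6 (-0.96) and Myl9 (-0.70) no longer passed. All 3 age comparisons of a ploidy share libraries.

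Between ploidies, no member passed a fold of 2 at E16.5 or at P1, where 4.66% and 5.23% of genes did so in either direction. At P5 Myl7 alone did, with a log2 ratio of 4n over 2n of -1.87 (-2.01 to -1.74) against 2.28% of genes. Most Myl7 UMIs at P5 sat in the few CMs rich in Myl7 (29 and 7), and the remaining CMs had 12.7 CPM in 2n and 7.79 in 4n. Without atrial-list CMs it was -2.07, with 0.281% and 0.0735% of the Myl2 and Myl7 UMIs. That exclusion took out 15 of the 29 CMs rich in Myl7 and 5 of the 7, so the rest stayed in. In CMs with a Myl7 share under 25%, Myl7 made up 0.0971% in 2n and 0.0656% in 4n. Myl4 and Myl1 came nearest among the others, at -0.78 and -0.79, and at -0.38 and -0.60 without atrial-list CMs.

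At E16.5 all 8 members were lower in 4n, by 0.14 to 0.45 on the log2 scale, while the median gene was at 0.03. The cardiac genes of the CM definition were lower there too. Actc1 stood at 9128 against 12456.5 CPM in E16.5-2n, Tnnt2 at 8399 against 10066, Tnni3 at 4129.5 against 5018 and Tnnc1 at 3699 against 4254. The lower level was thus not particular to the members. At P1 Myl2, Myl3, Myl4, Myl9 and Mylk3 were lower in 4n and Myl1, Myl6 and Myl7 higher, the interval of Myl1 holding 0 (-0.04 to 0.36) and its value turning to -0.10 after thinning. At P5 Myl6 alone was higher in 4n, by 0.24. The difference in the Myl4 share between 4n and 2n was -1.10 points at E16.5 (-1.49 to -0.71), -0.11 at P1 (-0.22 to 0.01) and -0.22 at P5 (-0.28 to -0.15). That in the Myl7 share was 0.13 points at E16.5 (-0.13 to 0.38), 0.13 at P1 (0.05 to 0.21) and -0.59 at P5 (-0.65 to -0.53). Summed fibroblast markers stood at 133 CPM for E16.5-2n, 796 for E16.5-4n, 142 for P1-2n, 947 for P1-4n, 263 for P5-2n and 360 for P5-4n. In that order, endothelial markers stood at 33.2, 126, 36.4, 147, 74.98 and 79.0 CPM, mural markers at 26.3, 56.1, 22.6, 97.6, 39.6 and 50.4, and erythroid markers at 5127, 10332, 1896, 2906, 2242 and 1649. The part of these in the differences between ploidies was not tested, and ploidy and library cannot be told apart.

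At E16.5, cells with and without cell cycle transcripts differed by less than 2 percentage points in isoform share before thinning. At P1 and P5 the shares were themselves too low for such a bound to tell much. At least 3 UMIs of a 20-gene cell cycle list were found in 1148, 2680, 194, 572, 497 and 1583 CMs of the 6 libraries. At E16.5 the Myl7 share was 5.69% in them against 6.77% in CMs with none in 2n, and 6.18% against 7.40% in 4n, with intervals that did not overlap. After thinning, with at least 2 UMIs of the list, it was 5.78% against 6.63% and 5.88% against 7.28%. The Myl4 share at E16.5 was 17.0% against 18.2% in 2n and 16.8% against 17.4% in 4n. After thinning it was 15.7% against 17.7% in 2n and 16.2% against 17.0% in 4n.

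At P1 the Myl4 share was higher in the CMs with cycle transcripts, at 2.43% (2.07% to 2.83%) against 1.64% (1.58% to 1.71%) in 2n and 1.78% (1.64% to 1.92%) against 1.61% (1.53% to 1.68%) in 4n, where the intervals overlapped. After thinning it was 3.31% against 1.62% in 2n and 2.37% against 1.61% in 4n. The Myl7 share at P1 in 2n was 1.75% (1.46% to 2.08%) against 0.888%. After thinning, which also lowered the cut to 2 list UMIs, it was 0.757% against 0.902%. That 0.757% rested on 11 UMIs, and its interval (0.378% to 1.35%) held 0.902%, so the direction was not settled. At P5 the Myl7 share was 1.02% against 0.982% in 2n and 0.210% against 0.0953% in 4n. After thinning it was 1.33% against 1.14% in 2n and 0.252% (0.170% to 0.360%) against 0.336% (0.269% to 0.415%) in 4n. The direction in 4n thus turned after thinning, with overlapping intervals. In 2n the intervals overlapped before and after thinning. The Myl4 share at P5 was 0.666% against 0.76% in 2n and 0.413% against 0.341% in 4n. After thinning it was 1.29% against 0.825% in 2n and 0.541% against 0.519% in 4n. Its direction in 2n thus turned after thinning, and the intervals overlapped in both ploidies before and after.

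Of 30 other myosin genes (light chains, kinases, calmodulins, phosphatase subunits, heavy chains and partners), 21 to 25 reached 100 UMIs in a comparison. From E16.5 to P1, 5 of the 21 tested were lower by a fold of 2 or more in 2n, against 12.1% of all genes tested. In 4n it was 6 of 23, against 11.6%. Higher were 1 in 2n and 3 in 4n, against 1.98% and 2.88%. Lower in both ploidies were Myh7 (folds 3.94 and 4.16), Mylpf, the fast skeletal regulatory chain (3.79 and 4.16), Calm2, a calmodulin gene (2.01 and 2.94), Ppp1r12a, the targeting subunit of myosin phosphatase (2.39 and 3.17), and Myh10, a non-muscle heavy chain (2.63 and 2.34). Higher in both was Myh6, at 7.18 and 7.69. Median-of-ratios scaling raised every log2 ratio of this step by 0.345 in 2n and 0.328 in 4n. Of the genes lower in both ploidies, Calm2 and Ppp1r12a in 2n and Myh10 in 4n then fell short of a fold of 2. Whether these passed thus depended on the scaling.

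From P1 to P5 Myh7 was again lower in both ploidies, at 5.20 and 4.85, and Mylk4, a kinase related to Mylk3, was higher at 5.26 and 2.86, from 3.0 and 3.8 CPM to 15.7 and 10.8. Myh7 thus passed a fold of 2 at both steps. Myl4 did so too, with the larger folds at the first step, 11.6 and 10.8. Myl12a, a non-muscle regulatory chain, stood at 510 to 647 CPM in all 6 libraries. Myl10 had 0 UMIs in every library, for which the one-sided 95% limit is 3 UMIs in each, and Myl6b had 1 to 6 UMIs.

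Of 6466 genes with at least 1000 UMIs in all and 10 in each library, those nearest to each sarcomeric chain were found by the root mean squared difference of log2 CPM, centred over the 6 libraries. Nearest to Myl2 were 1110008P14Rik (0.025), Tmem147 (0.032) and Gm561 (0.041). Nearest to Myl3 were Tmem126a (0.030), Hacd1 (0.033) and Uqcrc1 (0.035). These genes, as Myl2 and Myl3 do, lay within a narrow range in the 6 libraries.

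The genes nearest to the fetal chains lay at larger distances than those nearest to Myl2 and Myl3. The distance was not scaled to the range of a gene over the libraries, which was wide for Myl4 and Myl7. The UMI minimum per library also left out genes that fell to very few UMIs. Whether the fetal chains lack close neighbours therefore cannot be told from these distances. Nearest to Myl4 were Slc2a1, a glucose transporter (0.43), Cnn1, a smooth muscle calponin (0.47), and Gtsf1 (0.51), and nearest to Myl7 were Cnn1 (0.46), Spon1 (0.51) and Slc2a1 (0.57). Cnn1 stood at 76.4, 54.9, 7.24, 6.10, 5.97 and 3.04 CPM in the order given above. Nearest to Myl1 were Orc6, of the origin recognition complex (0.09), Slbp, the histone stem-loop binding protein (0.15), and Hbegf, a growth factor (0.17). Orc6 stood at 46.0, 45.1, 13.7, 15.8, 20.6 and 12.3 CPM, with P5-2n above P5-4n as for Myl1.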

How the data were processed

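Per the labels and the study's methods, left ventricles of C57BL/6J mice were digested, cells were fixed in methanol and sorted by MYH1 and Hoechst signal, and 1 library per age and ploidy was made with 10x 3′ chemistry. The authors ran Cell Ranger with STAR (versions not given in the sources used here) against mm10 (GRCm38), and deposited filtered tables of UMI counts per gene and cell. No doublets were marked here. CMs were cells with at least 1 UMI of each of 4 cardiac genes, with no other filter. Counts of all CMs in a library were added up, divided by the library total (CPM) and compared as log2 ratios. Intervals are exact at 95% (Clopper-Pearson for shares, Poisson for counts). They treat UMIs of the same cell as independent, and PCR or sampling of cells or animals is not covered. Where few cells hold most UMIs of a gene, as for Myl7 at P5, they are too narrow for the spread between cells. Share differences were bounded by the outer limits of both intervals. Fold counts used genes with at least 100 UMIs in the 2 libraries together.

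No test was run. No group had a replicate, and a fit of ploidy over the 3 ages was not made. The members and gene lists were chosen with earlier results of these data known. Named genes were the 8 members, the other myosin genes past a fold of 2 in the same direction in both ploidies, and the 3 nearest genes to each of 5 chains. Sln, Mybphl, Myl12a, Myl10, Myl6b and the heavy chains and markers beside the members were named as list members. Alternatives changed the cell filter, depth (thinning to 1000 UMIs), doubtful cells, scaling, fold and UMI minimum. The log2 ratio and intervals were tested on simulated data, drawn as independent counts with no clustering of UMIs in cells. That simulation therefore could not show how the intervals behave where few cells hold most UMIs of a gene. Positions were from GENCODE M21 and promoters from RefSeq. A table of the authors' own fold changes and p-values between E16.5-4n and P5-4n G2/M cells, and a list of background gene symbols, were not used. Python 3.11.15, numpy 2.4.6, scipy 1.17.1 and pandas 2.3.3 were used.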

Additional observations from a re-analysis of the deposited data

Results flagged for a closer look

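Results for 3 genes went in opposite directions in different groups, with counting intervals that excluded 0, and in none was the difference tested, since each group was 1 library. From P1 to P5 the log2 ratio of Myl2 was 0.054 in 2n and -0.053 in 4n, values that the median-of-ratios scaling turned into 0.16 and 0.15. The log2 ratio of Myl6 in 4n over 2n was -0.14 at E16.5, 0.26 at P1 and 0.24 at P5. Leaving out CMs with UMIs of other cell types, erythroid list not used, moved the P1 value to 0.08 and left the P5 value at 0.24. The log2 ratio of Myl7 in 4n over 2n was -0.22 at E16.5, 0.16 at P1 and -1.87 at P5. With median-of-ratios scaling the P1 value was 0.03, and at P5 most Myl7 UMIs sat in 29 CMs of P5-2n and 7 of P5-4n.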

How the results depend on the processing

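No replicate block was fitted, since each group was 1 library without a replicate number, and a fit of ploidy over the 3 ages as pairs was not run. Between E16.5 and P5 the Myl4 share difference was -16.46 points in 2n and -15.99 in 4n after thinning to 1000 UMIs, -19.30 and -19.84 without cells holding markers of other types, -14.85 and -14.42 as a mean over cells, and -16.14 in 4n without atrial-list cells. The Myl7 share difference was -5.28 and -6.07 after thinning, -6.04 and -6.11 without marker cells, -5.24 and -5.62 as a mean over cells, -5.28 and -5.45 without marker cells when the erythroid list was not used, and -5.27 and -5.60 without atrial-list cells. These kept their direction. Between P1-2n and P5-2n the Myl7 share difference turned to 0.287 points after thinning, and the cause was not tested.

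Differences of 4n minus 2n moved more. The Myl4 difference at E16.5 turned to 0.282 points without marker cells, which left 667 and 445 CMs. At P1 it was 0.0116 without marker cells, 0.0454 without cells of high UMIs and 0.0528 as a mean over cells. At P5 it was -0.373 after thinning, -0.345 as a mean over cells, -0.0358 without marker cells (erythroid list not used) and -0.0457 without atrial-list cells. The Myl7 difference at P1 was 0.0205 without marker cells (erythroid list not used). At P5 it was -0.899 after thinning, -0.104 without marker cells, -0.651 without cells of high UMIs, -0.434 as a mean over cells, -0.166 without marker cells (erythroid list not used) and -0.208 without atrial-list cells.

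The count of members lower from E16.5-2n to P1-2n was 3 with median-of-ratios scaling and 3 at a fold of 3, against 6.13% and 4.2% of all genes. From P1-2n to P5-2n it was 2 without marker cells, with or without the erythroid list (against 4.89% and 2.49%), 2 without atrial-list cells (2.04%) and 0 at a fold of 3 (0.347%), and 1 member was higher at a fold of 1.5 (7.27%). From E16.5-4n to P1-4n 5 were lower at a fold of 1.5 (30.4%), and at P5 2 were lower in 4n without marker cells (3.06%) and 3 at a fold of 1.5 (1.85%). Of 720 log2 ratios recomputed, 19 changed sign, in 5 members, each with a size of at most 0.178 as reported. The exclusions without the erythroid list and of atrial-list cells were chosen after seeing the data.

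Depth limits single-cell statements: 20 to 54 UMIs stood behind a typical isoform share of a cell, and P1-2n CMs were shallowest. With 1 library per group, neither age nor ploidy can be told apart from the library, and no interval of a level or ratio covers the spread between cells or animals.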
